A study of Mus musculus with 12 samples.

Results

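The 10 genes described here encode guanylate-binding proteins (GBPs: Gbp2, Gbp3, Gbp4, Gbp5, Gbp6 and Gbp7) and immunity-related GTPases (IRGs: Irgm1, Irgm2, Igtp and Iigp1). They were taken by gene name, and 10 of 10 were found among the 14264 genes of each deposited table. The cells were mouse bone marrow-derived macrophages with a control short hairpin RNA (shCTRL, labelled WT) or a hairpin against MOF (shMOF), the histone acetyltransferase that Kat8 encodes. Each line was left unstimulated or given lipopolysaccharide (LPS) at 100 ng/ml for 3 h, with 3 libraries in each of the 4 groups. All groups therefore carry a hairpin, and the labels give 1 hairpin against MOF, with no mouse strain, age or statement that libraries came from separate animals or cultures. The p-values thus measure only the spread between these libraries, which may be technical.

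GBPs and IRGs are GTPases that interferons induce, in macrophages above all interferon gamma, and that LPS also induces through TLR4 and the interferon beta it calls forth. GBPs coat the vacuoles of intracellular pathogens and the LPS of Gram-negative bacteria, where they promote cleavage of gasdermin D by caspase-11, the product of Casp4. IRGs such as Iigp1 (Irga6) disrupt the vacuoles of Toxoplasma and Chlamydia, while Irgm1, Irgm2 and Igtp (Irgm3) are regulators that keep the effector IRGs and the GBPs off the cell's own membranes.

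The genes lie in few places of the genome, given here on GRCm38 (mm10) from GENCODE M21. Gbp5 (142493978 to 142522344), Gbp7 (142530342 to 142550149), Gbp3 (142560026 to 142573209) and Gbp2 (142620602 to 142638008) follow each other on the plus strand of chromosome 3. Gbp4 (105115767 to 105139586) and Gbp6 (105270702 to 105293698) lie on the minus strand of chromosome 5. Igtp (58199556 to 58207591) and Irgm2 (58199618 to 58222782) begin close together on the plus strand of chromosome 11 in GENCODE. The RefSeq start of Irgm2 used for its promoter below is another one. Its printed bases (58214777 to 58214976) lie downstream of the GENCODE start and of the end of Igtp. Irgm1 (48861968 to 48871683) lies on the minus strand of the same chromosome, and Iigp1 lies on another chromosome. RefSeq and GENCODE starts also differ for Gbp5. Its printed bases (142496734 to 142496933) lie inside the GENCODE gene, downstream of the start at 142493978. The printed bases of Irgm1 (48871421 to 48871620) also lie inside its GENCODE gene, near the start. Those of Gbp2 (142620463 to 142620662) run past its GENCODE start.

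Promoter windows from RefSeq (GRCm38.p6, 250 bases before to 50 after the start) were matched for 7 of the 10 genes, with 8 windows in all. Gbp4, Gbp6 and Iigp1 are named only. Windows were searched on both strands for the letters of the interferon-stimulated response element core, which is GAAA, any 2 bases and GAAA again (on the other strand TTTC, any 2 bases and TTTC), and of the gamma-activated site, TTCNNNGAA, whose letters are the same on both strands. Overlapping matches were all kept, and in these genes overlaps were found only between matches of the response element, in Gbp3 and Irgm1. The response element letters were found in 7 of 7 genes, against 3.99% of the 27025 genes with a window. The gamma-activated site letters were found in 4 of 7 genes (Gbp5, Gbp7, Igtp and Irgm2), against 9.55% of all genes. Related genes held the motifs often as well: the response element letters were found in 5 of 9 other GBP and IRG genes with a window and in 12 of 27 other interferon-stimulated genes, and the gamma-activated site letters in 3 of 9 and 7 of 27. Matches to these letters describe the windows and do not show that a factor binds there. The 200 bases before the RefSeq start are printed for Gbp5 and Irgm1, whose knockdown effect was called different between LPS states. They are also printed for Igtp and Irgm2, which share an arrangement of both motifs, and for Gbp2, the gene with the highest level. Capitals mark the letters of both motifs.
Gbp5 (chr3:142496734-142496933, plus strand): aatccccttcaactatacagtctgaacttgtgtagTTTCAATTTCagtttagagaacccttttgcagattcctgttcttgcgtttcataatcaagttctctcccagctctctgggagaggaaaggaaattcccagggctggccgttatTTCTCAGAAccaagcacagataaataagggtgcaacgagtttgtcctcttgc
Irgm1 (chr11:48871421-48871620, minus strand): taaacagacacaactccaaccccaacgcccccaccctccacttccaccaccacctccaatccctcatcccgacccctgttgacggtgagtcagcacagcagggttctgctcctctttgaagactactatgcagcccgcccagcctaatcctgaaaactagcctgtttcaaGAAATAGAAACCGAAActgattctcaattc
Igtp (chr11:58199356-58199555, plus strand): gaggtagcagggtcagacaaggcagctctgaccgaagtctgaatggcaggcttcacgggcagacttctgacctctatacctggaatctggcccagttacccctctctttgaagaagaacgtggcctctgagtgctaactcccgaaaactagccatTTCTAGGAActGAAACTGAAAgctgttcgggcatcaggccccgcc
Irgm2 (chr11:58214777-58214976, plus strand): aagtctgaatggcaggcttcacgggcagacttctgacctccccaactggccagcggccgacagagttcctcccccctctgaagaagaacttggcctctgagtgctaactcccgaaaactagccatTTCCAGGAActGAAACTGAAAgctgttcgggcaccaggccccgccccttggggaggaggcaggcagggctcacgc
Gbp2 (chr3:142620463-142620662, plus strand): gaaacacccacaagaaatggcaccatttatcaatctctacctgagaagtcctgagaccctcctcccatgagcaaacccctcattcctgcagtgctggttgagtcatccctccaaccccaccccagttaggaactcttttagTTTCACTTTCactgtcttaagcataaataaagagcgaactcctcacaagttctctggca

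In Igtp and Irgm2 the gamma-activated site letters TTCTAGGAA and TTCCAGGAA stand 2 bases before the same response element letters, GAAACTGAAA. Counted from the RefSeq start of each window, with -1 the base just before it, the response element letters begin at -34 in Igtp and at -64 in Irgm2. The longest run of bases shared within these windows was 61, beginning at -11 in Igtp and at -41 in Irgm2. It lies after both motifs and reaches the end of the Igtp window, so its full length is not known. The printed bases just before, within and after the motifs are also nearly the same in both genes. Chosen after the sequences were seen, the arrangement of both motifs 2 bases apart occurred in 5 of 32851 windows, those of Igtp, Irgm2, Tgtp1, Tgtp2 and Gm12185. In Gbp5 the motifs lie 103 bases apart in the printed stretch. Its nearest pair lies 71 bases apart and uses another gamma-activated site match, TTCTGGGAA, which begins at -245, before the printed bases. In Gbp7 the nearest pair lies 25 bases apart. The kappaB motif, the letters to which NF-kB binds, was found in 1 of 7 genes, Gbp5, where it begins at -77, against 5.14% of all genes. In Irgm1 the capitals cover a pair of overlapping response element matches.

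The targeted gene Kat8 had a log2 fold change of -2.25 (SE 0.10) in unstimulated cells and of -2.31 (SE 0.13) at LPS 3 h per the authors' deposited table. Macrophage markers were measured for 8 of 8 genes, with mean normalized counts from 1233 to 259735. Of 12 lymphocyte, 5 dendritic cell and 5 neutrophil markers 1 each was measured, Cd4, Zbtb46 and S100a8, with mean normalized counts of at most 167. All 4 stromal markers were measured, from 61.7 to 667. The tables hold 1 fold change, SE and p per gene and comparison, with no values per library, so levels per sample and whether groups overlap cannot be given. For the same reason the change with LPS itself in either line was not analysed here. Depth per library is unknown. In bulk RNA, fewer cells of a type and less RNA per cell cannot be told apart.

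The pooled mean normalized count of each of the 10 genes lay well above the lowest in the tables, 4.33. Being pooled, it does not show the level in unstimulated cells alone. The authors' deposited mean of Gbp2, a GBP of pathogen vacuoles, was 19197, the highest of the 10, and that of Gbp4 was 1138, the lowest. Per kb of exonic length, Gbp2 stood at 7630 and was followed by Igtp at 3000 and Gbp5 at 2676 in the authors' deposited means. These were the most abundant by length and include both families. Next per kb came Gbp3 at 2332, Irgm1 at 2292 and Irgm2 at 2137, all from the authors' deposited means. Lower were Gbp7 at 866, Iigp1 at 773, Gbp6 at 208 and Gbp4 at 152 in the authors' deposited means per kb. These means pool libraries in a way the tables do not state and carry no error, so neighbours in this order cannot be separated.

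In unstimulated macrophages MOF knockdown raised 5 of the 10 genes and lowered 0, with changes of at most 1.67-fold. The 5 were Gbp3, Gbp7, Irgm2, Igtp and Iigp1. Over all 14264 genes tested 39.1% passed, with 21.3% higher and 17.8% lower. The median log2 fold change of the 10 genes was 0.34, beside 0.03 over all genes. By family, 2 of 6 GBPs and 3 of 4 IRGs rose. At an unadjusted p of 0.05, 6 of the 10 were higher and 0 lower in the authors' DESeq2 Wald test.

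Among the IRGs, the effector gene Iigp1 changed the most, with a value of 0.74 on the log2 scale (SE 0.23, adjusted p = 0.00438) according to the authors' deposited table. The regulators Irgm2 and Igtp had nearly equal values, 0.34 (SE 0.11, adjusted p = 0.00908) and 0.34 (SE 0.14, adjusted p = 0.0489), as given by the authors' deposited table. Irgm1 had 0.03 (SE 0.10, adjusted p = 0.841) per the authors' deposited table, with a 95% interval from -0.17 to 0.24. This interval leaves room for a rise of at most 1.18-fold. The call for Igtp rested on a p just under the threshold and was lost, at adjusted p = 0.0785, after fold changes were centred on the median of all genes.

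Among the GBPs, Gbp7, which has a role in the oxidative burst of phagocytes, rose by 0.52 (SE 0.18, adjusted p = 0.0123) according to the authors' deposited table. Gbp3, its neighbour on chromosome 3, rose by 0.39 (SE 0.15, adjusted p = 0.0247) as given by the authors' deposited table. Gbp6 had 0.43 (SE 0.18, adjusted p = 0.0510) per the authors' deposited table, and passed with adjusted p = 0.0468 when the adjustment took only genes with a mean of at least 10. Gbp2, on the same cluster as Gbp3 and Gbp7, had 0.16 (SE 0.15, adjusted p = 0.409) according to the authors' deposited table. Gbp5, a prenylated GBP with a role in inflammasome activation, had -0.09 (SE 0.20, adjusted p = 0.759), and Gbp4 had -0.22 (SE 0.28, adjusted p = 0.574), as given by the authors' deposited table. Their 95% intervals, -0.48 to 0.29 for Gbp5 and -0.77 to 0.32 for Gbp4, hold changes in either direction.

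At LPS 3 h knockdown raised 6 of the 10 genes and lowered 0, with changes of up to 1.98-fold. All 4 IRGs rose, and Gbp5 and Gbp3 rose among the 6 GBPs. Over all 13987 genes with an adjusted p 48.0% passed, made up of 28.1% that rose and 20.0% that fell. The median log2 fold change was 0.39 for the 10 genes, 0.62 for the IRGs and 0.29 for the GBPs, beside 0.03 over all genes. Whether the families differ was not tested. All 10 fold changes were above 0, and at an unadjusted p of 0.05 8 were higher and 0 lower in the authors' DESeq2 Wald test.

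Iigp1 again had the largest change, 0.99 (SE 0.20, adjusted p = 4.64e-06) per the authors' deposited table, close to a doubling. The regulators followed, with Irgm2 at 0.66 (SE 0.10, adjusted p = 3.01e-10) according to the authors' deposited table. Igtp rose by 0.58 (SE 0.13, adjusted p = 1.92e-05) as given by the authors' deposited table. Irgm1, the regulator tied to autophagy, rose by 0.45 (SE 0.09, adjusted p = 5.34e-06) per the authors' deposited table. In fold terms the IRGs rose between 1.37-fold for Irgm1 and 1.98-fold for Iigp1.

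Gbp5 had 0.90 (SE 0.15, adjusted p = 3.17e-08) according to the authors' deposited table, a 1.86-fold rise. This set it apart from Gbp2, Gbp3, Gbp4, Gbp6 and Gbp7, but not from every GBP. Gbp11, a further GBP with a mean normalized count of 29.4, rose by 0.97 (SE 0.30, adjusted p = 0.0032) per the authors' deposited table. Gbp3 rose by 0.30 (SE 0.12, adjusted p = 0.0338) as given by the authors' deposited table, and this call was lost after centring (adjusted p = 0.0593). Gbp2 had 0.28 (SE 0.13, adjusted p = 0.0536) and Gbp7 had 0.33 (SE 0.16, adjusted p = 0.0687) per the authors' deposited table. Gbp4 and Gbp6, on the minus strand of chromosome 5, had the smallest changes of the GBPs named here. These were 0.17 (SE 0.22, adjusted p = 0.556) for Gbp4 and 0.16 (SE 0.14, adjusted p = 0.353) for Gbp6 according to the authors' deposited table. For Gbp6 the 95% interval ends at 0.44, or a rise of 1.35-fold.

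**Figure D1:**
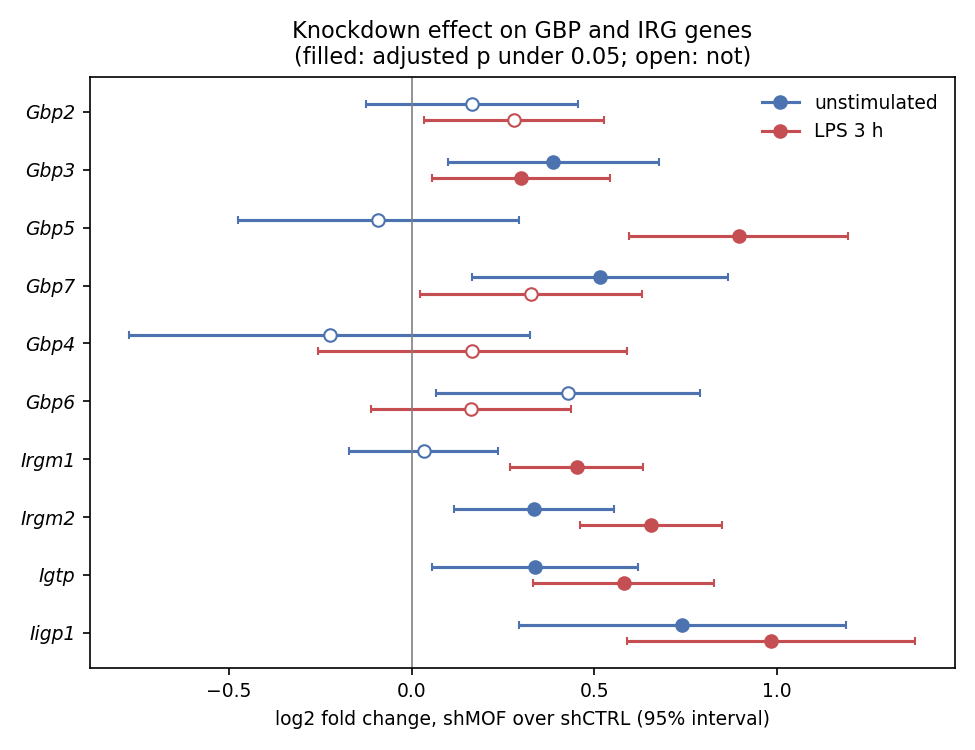
Log2 fold change of shMOF over shCTRL for the 10 genes on the x axis, unstimulated (blue) and at LPS 3 h (red), with 95% normal intervals from the authors' SE. Filled points have an adjusted p under 0.05, 5 genes unstimulated and 6 at LPS 3 h, and no filled point lies below 0.

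The knockdown effect was called different between LPS states for 2 of the 10 genes, Gbp5 and Irgm1. The difference was the log2 fold change at LPS 3 h minus that in unstimulated cells, tested over 12994 genes with a mean of at least 10. Over those genes 30.6% passed, 18.2% with a higher value at LPS 3 h and 12.4% with a lower one. The count of 2 of 10 called higher is near that share and says nothing particular of the 10 genes as a set. For Gbp5 the effect went from -0.09 unstimulated to 0.90 with LPS as given by the authors' deposited table. This difference of 0.99 (SE 0.25, 95% interval 0.50 to 1.47) passed with adjusted p = 5.39e-04. For Irgm1 the effect went from 0.03 to 0.45 per the authors' deposited table, a difference of 0.42 (SE 0.14, 95% interval 0.15 to 0.69, adjusted p = 0.0118). This call was lost under several alternatives, such as Benjamini-Yekutieli adjustment of the same test (adjusted p = 0.119).

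The other 8 differences did not pass. Irgm2 came nearest, at 0.32 (SE 0.15, adjusted p = 0.0897). The differences of Gbp4 (0.39, SE 0.35), Iigp1 (0.24, SE 0.30), Igtp (0.24, SE 0.19) and Gbp2 (0.12, SE 0.19) were above 0. Those of Gbp3 (-0.09, SE 0.19), Gbp7 (-0.19, SE 0.24) and Gbp6 (-0.27, SE 0.23) were below 0. The intervals are wide: for Iigp1 the difference lies between -0.35 and 0.84, so a missed threshold does not show that its effect was alike in both states. All 4 IRG differences and 3 of 6 GBP differences were above 0. Without a call for the single genes this is a count only, and 0 differences were called lower, also at an unadjusted p of 0.05.

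**Figure D2:**
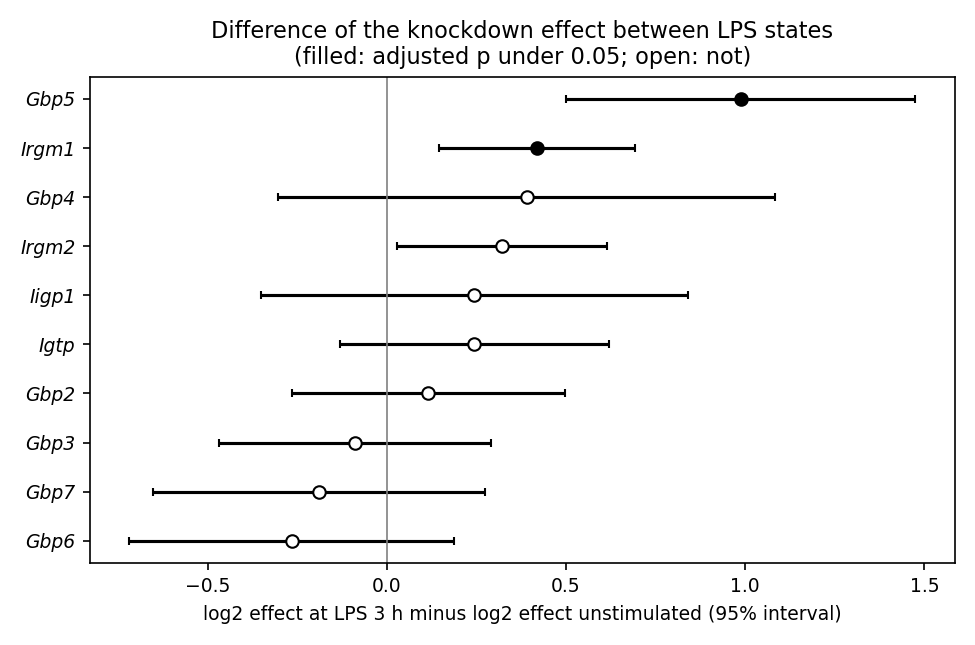
Log2 fold change at LPS 3 h minus that in unstimulated cells (x axis) for each gene, with 95% normal intervals, ordered by size. Filled points have an adjusted p under 0.05: Gbp5 at 0.99 and Irgm1 at 0.42.

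Set in order, genes next to each other did not differ beyond their errors in either state, in 9 of 9 neighbouring pairs each. The ends of the order did, with Iigp1 above Gbp4 by 0.96 (SE 0.36) unstimulated and above Gbp6 by 0.82 (SE 0.24) at LPS 3 h. For the difference between LPS states, Gbp5 exceeded the next gene, Irgm1, by 0.57 (SE 0.29). These are descriptions with no p, since errors of genes measured in the same libraries may be correlated. On chromosome 3, Gbp5 and its neighbour Gbp7 changed places: unstimulated Gbp7 had 0.52 and Gbp5 -0.09, and with LPS Gbp5 had 0.90 and Gbp7 0.33, according to the authors' deposited table.

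The fold changes of these genes were less precise than those of most genes with a like mean. The SE of the 10 fold changes ranged from 0.10 to 0.28 unstimulated and from 0.09 to 0.22 at LPS 3 h. Each was 1.88 to 4.42 times the median SE of the 200 genes closest in mean unstimulated, and 1.86 to 4.24 times at LPS 3 h. Each SE stood between the 92.5th and the 100th percentile of those genes unstimulated, and between the 94th and the 100th at LPS 3 h. A large SE at a given mean means that the libraries varied more around their group level or that a group had few counts, and which it was cannot be told without values per library. The 33 interferon-stimulated genes outside the GTPase families also had wide errors, with a median percentile of 93 in both states.

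**Figure D3:**
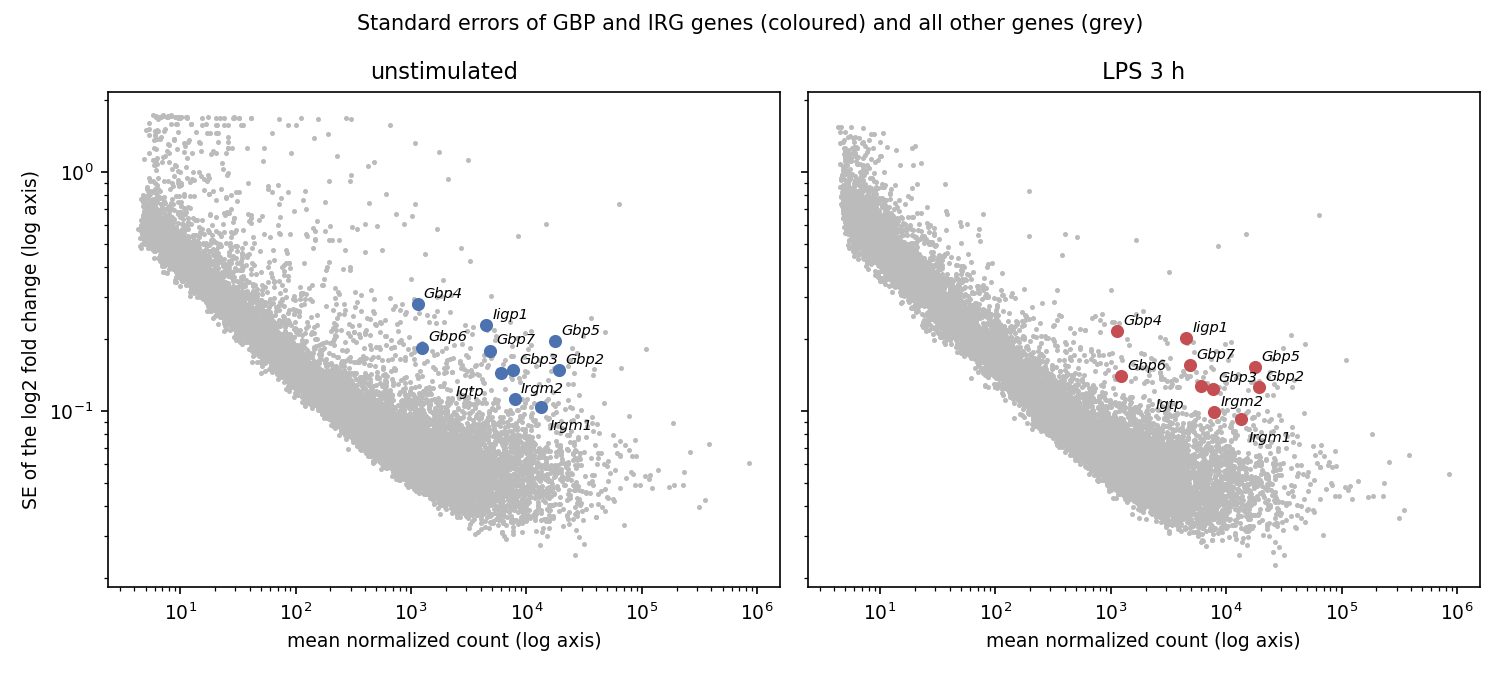
SE of the authors' log2 fold change (y axis, log scale) against the mean normalized count (x axis, log scale) for all 14264 genes in grey and the 10 genes in colour. The 10 genes lie above most genes of like mean in both states, with SE of 0.10 to 0.28 unstimulated and 0.09 to 0.22 at LPS 3 h.

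The families have members beyond these 10, and of a list of 16 further GBP and IRG genes 14 had values. Of these, 4 rose and 0 fell unstimulated, and 8 rose and 0 fell at LPS 3 h. Over all genes 21.3% rose and 17.8% fell unstimulated, and 28.1% and 20.0% at LPS 3 h. Of 13 differences 0 were called, beside 30.6% of all genes. Median log2 fold changes were 0.24 unstimulated and 0.45 at LPS 3 h. Gm12250 (Irgb10), an IRG that acts with GBPs on bacterial membranes, rose in both states, by 0.78 (SE 0.16) and 0.83 (SE 0.13) as given by the authors' deposited table. Ifi47 (Irgd) rose by 0.52 (SE 0.16) and 0.64 (SE 0.15), and Gm4951 by 0.56 (SE 0.15) and 0.46 (SE 0.13), per the authors' deposited table. Tgtp2 (Irgb6) had 0.38 (SE 0.22, adjusted p = 0.167) unstimulated and rose by 0.70 (SE 0.19, adjusted p = 9.91e-04) with LPS according to the authors' deposited table. The remaining rises among the IRGs were called at LPS 3 h only, in 9930111J21Rik2 and Gm5431. The test of the difference between states did not pass for either (adjusted p = 0.451 and 0.157). Gm5431 had 0.03 (SE 0.17) and then rose by 0.44 (SE 0.15), and 9930111J21Rik2 had 0.15 (SE 0.16) and then rose by 0.38 (SE 0.15), as given by the authors' deposited table. Gbp9 rose in both states, by 0.39 (SE 0.15) and 0.31 (SE 0.13) per the authors' deposited table. Gbp11 had 1.08 (SE 1.69) and then rose by 0.97 (SE 0.30) according to the authors' deposited table, at a mean normalized count of 29.4.

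The further genes with no call in either state were Gbp8, Gbp2b, Tgtp1, 9930111J21Rik1, F830016B08Rik and Irgq. Gbp8 had 0.08 (SE 0.15) and -0.23 (SE 0.18) as given by the authors' deposited table, and Gbp2b, at a mean of only 6.2, had 0.12 (SE 1.70) and 0.64 (SE 0.47). Tgtp1 had -0.74 (SE 0.52) and 0.56 (SE 0.30), and 9930111J21Rik1 had 0.03 (SE 0.24) and 0.35 (SE 0.21), per the authors' deposited table. F830016B08Rik had 0.32 (SE 0.27) and -0.03 (SE 0.25), and Irgq had -0.05 (SE 0.08) and 0.14 (SE 0.07), according to the authors' deposited table. With the 10 genes included, 10 of 14 measured IRGs of these lists and 4 of 10 GBPs rose at LPS 3 h. Unstimulated the counts were 6 of 14 and 3 of 10.

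Several of these genes are near copies, and the sources used here do not give how reads were divided between them. The share of 100-base windows of a gene's GENCODE M21 transcripts found letter for letter in transcripts of another gene was 0% for Gbp2, Irgm1 and Iigp1. It was 0.142% for Gbp5, 0.694% for Gbp3, 1.64% for Gbp4, 3.005% for Irgm2, 5.16% for Igtp and 10.01% for Gbp7. For Gbp6 it was 64.5%, mostly with Gm43302, a gene model that overlaps Gbp6 on the same strand in 29.0% of its exonic bases. Values of Gbp6 are therefore uncertain. Igtp and Irgm2 share 162 exonic bases on the same strand, 8.01% of those of Igtp. Among the further genes, Tgtp1 (73.1%), Tgtp2 (76.8%), 9930111J21Rik1 (70.5%), 9930111J21Rik2 (48.3%) and Gm5431 (20.6%) share windows with copies, and their values are uncertain too.

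**Figure D4:**
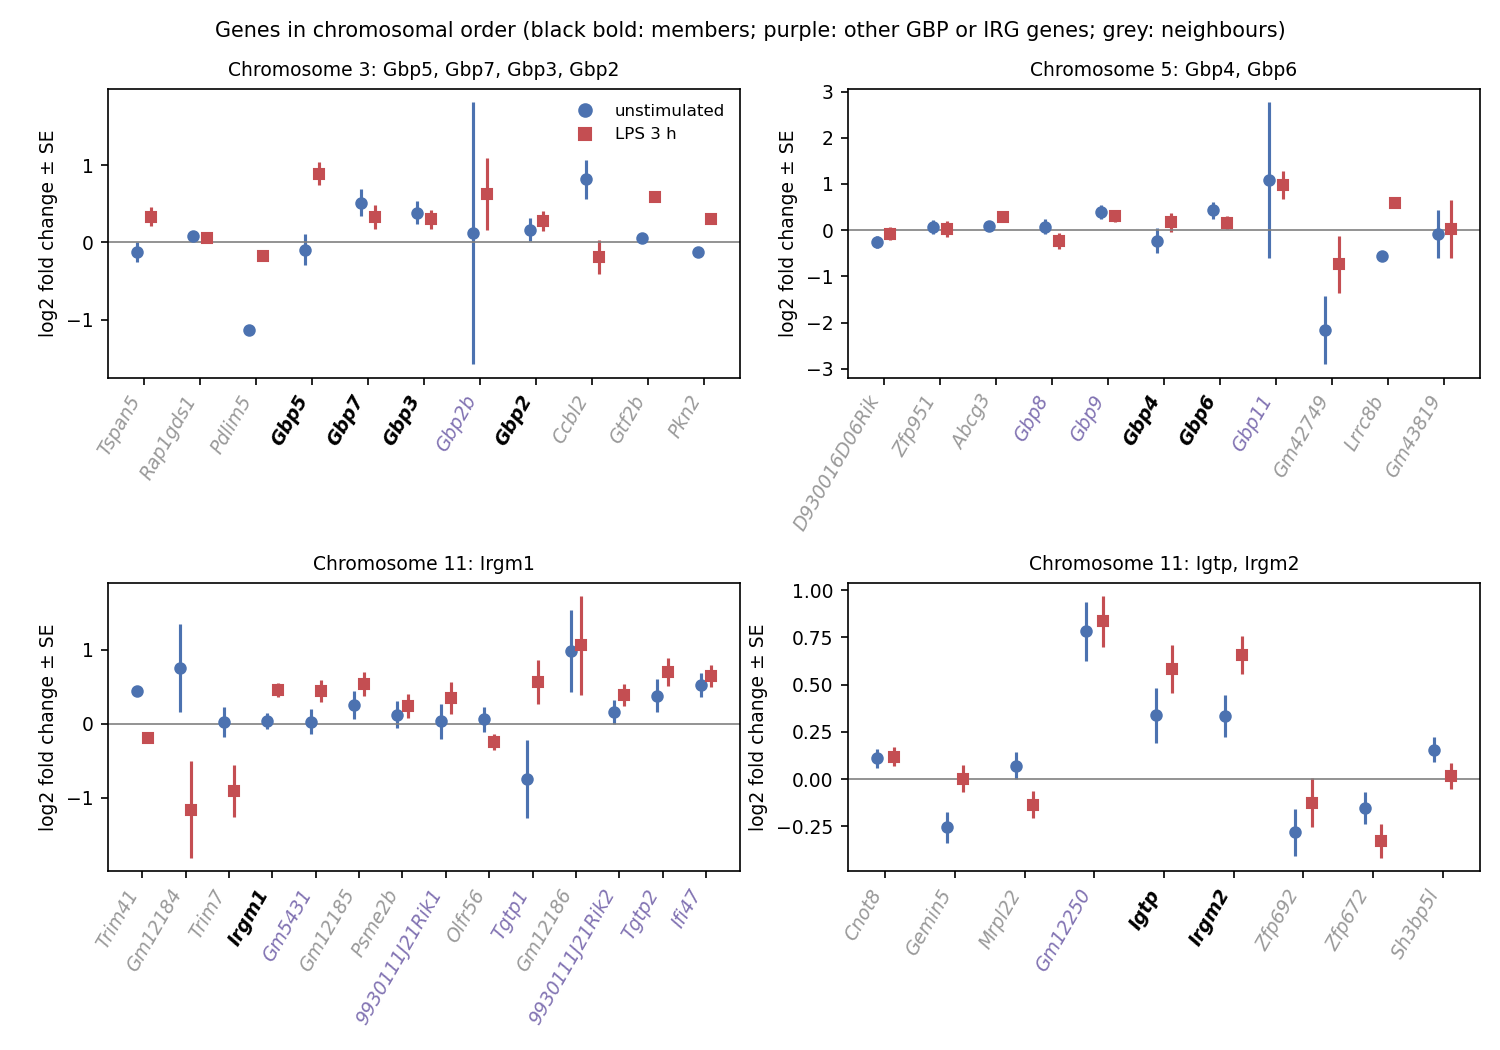
Log2 fold change ± SE (y axis) of genes in chromosomal order (x axis, not to distance) for the clusters on chromosomes 3, 5 and 11, unstimulated (blue circles) and at LPS 3 h (red squares), with the 3 nearest measured genes on each side and those between. Igtp, Irgm2 and Gm12250 lie above 0 in both states, while the neighbour of theirs farthest from 0 is Zfp672, at -0.33 with LPS.

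The measured genes nearest to the clusters held rises and falls, while around Iigp1 on chromosome 18 only rises were called. Some lay far off, such as Tspan5 at 3586 kb from the chromosome 3 cluster. Of 30 neighbours, 5 rose and 5 fell unstimulated, with a median of 0.06, beside 21.3% and 17.8% of all genes. At LPS 3 h 13 rose and 4 fell, with a median of 0.04, beside 28.1% and 20.0% of all genes. The unstimulated counts are near those shares and say nothing particular of the neighbours. Around Iigp1 all of Chsy3, Gm5970, Gm4841, BC023105, Smim3 and Dctn4 rose at LPS 3 h. Of these, Chsy3 lay 840 kb away with a mean normalized count of 22.5, and Gm4841 had a mean of 15.4. The nearest, BC023105, rose by 1.66 (SE 0.55) unstimulated and by 1.17 (SE 0.22) at LPS 3 h, and Gm5970 by 0.79 (SE 0.31) and 1.14 (SE 0.19), as given by the authors' deposited table. RefSeq lists both as pseudogenes. Gm4841 (Ifgga3 among its RefSeq synonyms) had -0.77 (SE 1.58) and then rose by 0.99 (SE 0.29), per the authors' deposited table. Neighbours were genes outside the GBP and IRG lists used here. By their synonyms Gm4841 and, beside Irgm1, Gm12185 appear related to the IRGs, so the neighbour counts are not free of the family. Gm5970 and Gm4841 lie between the IRG genes Gm4951 and F830016B08Rik, and BC023105 is the next measured gene after Iigp1. Whether Gm5970 and BC023105 are themselves related to the IRGs was not checked. The rises around Iigp1 therefore cannot be read as those of unrelated genes.

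The other clusters had neighbours with falls as well as rises. Beside Gbp5, Pdlim5 fell by 1.13 on the log2 scale unstimulated (SE 0.05) and by 0.17 (SE 0.05) at LPS 3 h according to the authors' deposited table. On the other side of that cluster Gtf2b, a general transcription factor gene, had 0.05 (SE 0.05) and then rose by 0.59 (SE 0.05), per the authors' deposited table. Lrrc8b, beyond the chromosome 5 cluster, fell by 0.56 (SE 0.07) without LPS and rose by 0.60 (SE 0.05) with it, as given by the authors' deposited table. The nearest gene on the left of Igtp, Mrpl22, had 0.07 (SE 0.07) and -0.14 (SE 0.07) according to the authors' deposited table. On the right of Irgm1, Gm12185 (Irgb2b1 among its RefSeq synonyms), whose promoter window holds the paired motifs, had 0.25 (SE 0.19) and then rose by 0.54 (SE 0.16), per the authors' deposited table.

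Genes of the pathway that drives GBP and IRG genes were called more often for rises than for falls. Of 15 genes for interferon receptors, JAK-STAT signalling and transcription factors 10 rose and 1 fell unstimulated, and 12 rose and 1 fell at LPS 3 h. Over all genes 21.3% rose and 17.8% fell unstimulated, and 28.1% rose and 20.0% fell at LPS 3 h. Of the differences of these 15 genes 3 were called higher and 0 lower, beside 18.2% and 12.4% of all genes. The count called higher is near its share. The same shares stand beside the counts of the lists that follow. Irf1, a factor that activates GBP promoters, rose by 0.74 (SE 0.08) and by 1.13 (SE 0.07) per the authors' deposited table. Its effect, like that of Gbp5 and Irgm1, was larger with LPS, by 0.39 (SE 0.10, adjusted p = 0.00127). The kinase genes Jak1 and Jak2 had -0.05 (SE 0.03) and 0.05 (SE 0.06) unstimulated, and rose by 0.43 (SE 0.03) and 0.65 (SE 0.04) with LPS, according to the authors' deposited table. The differences were 0.48 (SE 0.05, adjusted p = 8.23e-23) for Jak1 and 0.60 (SE 0.07, adjusted p = 8.41e-15) for Jak2.

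The chains of the interferon gamma receptor moved in opposite directions. Ifngr1, the ligand-binding chain, rose by 0.53 (SE 0.03) and 0.45 (SE 0.03) as given by the authors' deposited table. Ifngr2, the signalling chain, was the 1 gene of the list that fell, with -0.46 (SE 0.04) and -0.51 (SE 0.04) per the authors' deposited table. Ifngr2 and Ifnb1 are named after their values were seen. Ifnb1, the interferon beta gene, had -0.31 (SE 1.11) unstimulated and rose by 1.07 (SE 0.20) at LPS 3 h, according to the authors' deposited table. The difference for Ifnb1, 1.37 (SE 1.13), did not pass (adjusted p = 0.385).

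Inhibitors of interferon signalling rose as well, 5 of 8 unstimulated and 8 of 8 at LPS 3 h, with 0 lower in either. Socs3 rose by 0.80 (SE 0.17) and 0.76 (SE 0.13) as given by the authors' deposited table. The phosphatase gene Ptpn6 rose by 0.58 (SE 0.05) and 0.13 (SE 0.05), while Ptpn2 had 0.10 (SE 0.07) and then rose by 0.63 (SE 0.05), per the authors' deposited table. Ptpn11 rose by 0.12 (SE 0.04) and 0.27 (SE 0.04) according to the authors' deposited table. Activators and inhibitors of the pathway thus both had more rises than falls.

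The ubiquitin-like conjugation system that directs GBPs and IRGs to vacuoles held rises and falls. Of 13 genes 4 rose and 2 fell unstimulated, Atg3 and Atg5, and 8 rose and 1 fell, Atg5, at LPS 3 h. The unstimulated count is near the background, where 21.3% of all genes rose and 17.8% fell, beside 28.1% and 20.0% at LPS 3 h. Atg5, needed for loading of IRGs onto vacuoles, had -0.13 (SE 0.05) and -0.49 (SE 0.05), and Atg3 had -0.17 (SE 0.05) and -0.05 (SE 0.04), as given by the authors' deposited table. Gabarapl1, a member of the ATG8 family that the system conjugates, rose by 0.42 (SE 0.04) and 0.56 (SE 0.04) per the authors' deposited table. The cargo receptor gene Sqstm1 had -0.0020 (SE 0.07) and then rose by 0.61 (SE 0.06), and the ubiquitin ligase gene Trim21 had 0.15 (SE 0.10) and then rose by 0.67 (SE 0.09), according to the authors' deposited table.

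Of 9 genes listed as inflammasome partners of the GBPs, which include the cytokine genes Il1b and Il18, 6 rose and 0 fell in each state. The medians were 0.27 and 0.34, and 3 differences were called higher and 0 lower. Casp4 had 0.14 (SE 0.07, adjusted p = 0.0931) and then rose by 0.56 (SE 0.06) as given by the authors' deposited table. Its effect differed between states by 0.42 (SE 0.09, adjusted p = 4.92e-05). Aim2, the sensor of DNA freed from bacteria, also had a larger effect with LPS, by 0.51 (SE 0.10, adjusted p = 9.07e-06). That of Nlrp3 differed by -0.18 (SE 0.08, adjusted p = 0.0680), and that of Il18 by 0.38 (SE 0.13, adjusted p = 0.0215).

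Interferon-stimulated genes outside the GTPase families also had rises and no falls in either state. Of 33, 18 rose and 0 fell unstimulated and 21 rose and 0 fell at LPS 3 h, with medians of 0.27 and 0.31 beside 0.34 and 0.39 for the 10. In this list 4 differences were called higher and 3 lower, counts not above the 18.2% and 12.4% of all genes. Parp9 rose by 0.68 (SE 0.08) and 0.64 (SE 0.07) per the authors' deposited table. Samd9l had 0.18 (SE 0.09) and then rose by 0.55 (SE 0.08) according to the authors' deposited table, a difference of 0.36 (SE 0.12, adjusted p = 0.00969). Ifi205, of the AIM2-like family, rose by 0.37 (SE 0.12) and 0.90 (SE 0.09) according to the authors' deposited table, a difference of 0.53 (SE 0.15, adjusted p = 0.00312). For Oasl2 the difference was -0.31 (SE 0.13, adjusted p = 0.0551). The differences called lower, named after their values were seen, were those of Zbp1 at -0.64 (SE 0.21), Bst2 at -0.53 (SE 0.13) and Irf7 at -0.46 (SE 0.17). The remaining ones called higher were Cmpk2 at 0.85 (SE 0.28) and Eif2ak2 at 0.33 (SE 0.11).

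**Figure D5:**
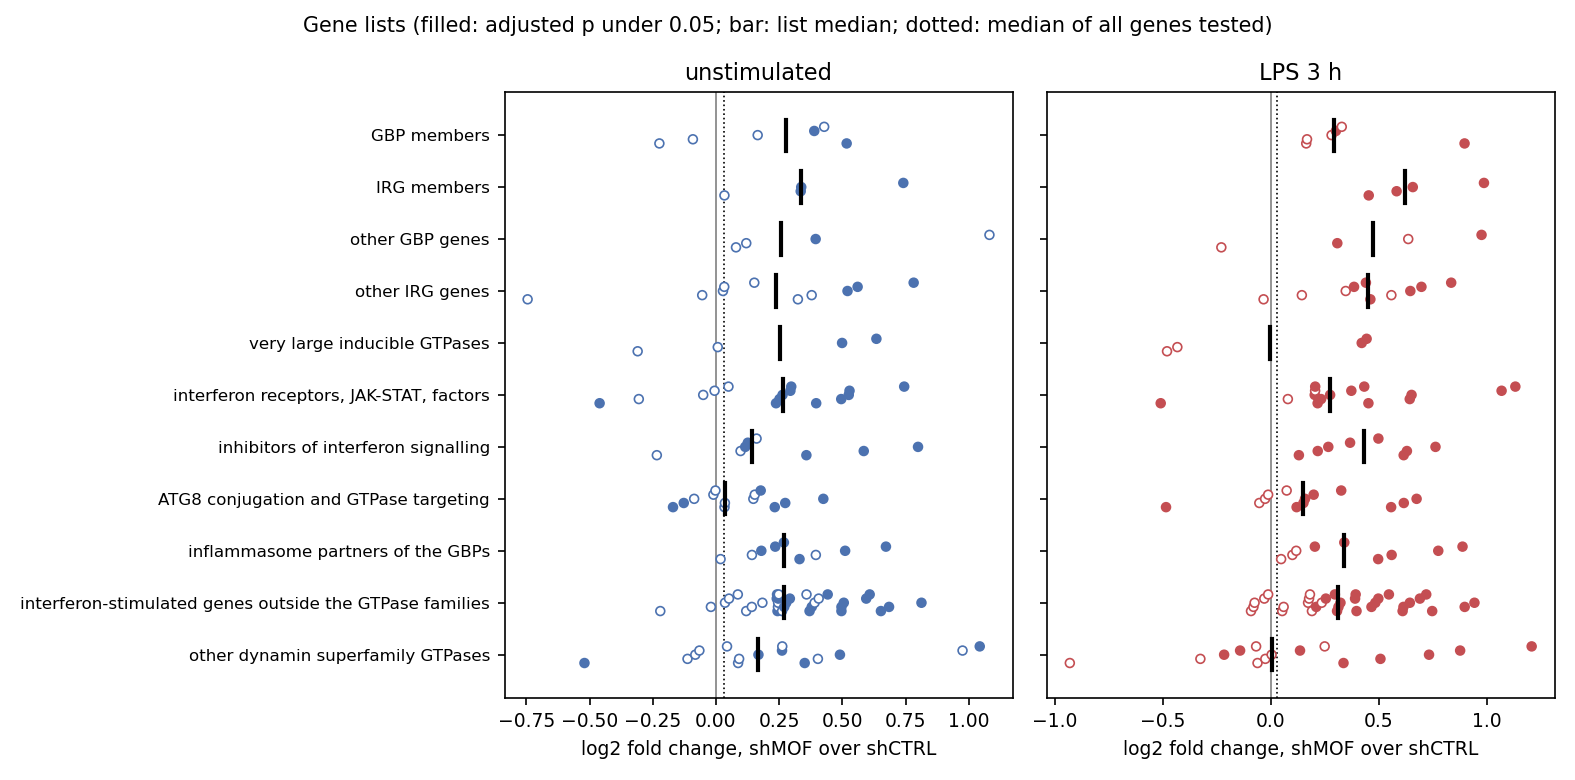
Log2 fold change (x axis) of each measured gene of the GBPs, the IRGs and 9 related lists, unstimulated (left, blue) and at LPS 3 h (right, red), filled where the adjusted p is under 0.05. Black bars are list medians, 0.28 and 0.34 for the GBPs and IRGs unstimulated and 0.29 and 0.62 at LPS 3 h, and the dotted line is the median of all genes, 0.03.

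Markers of cell types moved with the knockdown beside these genes. All 8 macrophage markers rose unstimulated, with a median of 0.45, and 6 of 8 rose at LPS 3 h, with a median of 0.25. Of these 8, 5 had a difference between states that was called lower, beside 12.4% of all genes. Of 4 stromal markers 3 rose unstimulated and 4 at LPS 3 h, with medians of 0.38 and 0.54. The dendritic cell marker Zbtb46 rose at LPS 3 h, by 0.70 (SE 0.20) as given by the authors' deposited table, and Cd4 and S100a8 were not called in either state. Their part in the results for GBP and IRG genes was not tested. Among the 5 genes nearest to the medians of the 10 genes over the 2 comparisons, of 10682 genes outside the lists with a mean of at least 50, were Gpsm1, Zfp346, Csnk1d and Tyrobp. These lay within 0.0147 on the plane of both log2 fold changes. With 2 comparisons this likeness is loose, since 234 genes lay within 0.1.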

How the data were processed

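RNA from 12 libraries in 4 groups of 3 was sequenced with stranded, paired-end reads of 100 bp, per the labels' protocol. The submitters' processing notes name DESeq2 and mm10, while aligner, counter and strand setting of the counting are not given in these sources. The authors' tables hold, per the file headers, the mean normalized count (a signal, identical in both), the log2 fold change with its SE, the Wald statistic (a score), and raw and adjusted p-value of each gene as deposited. The deposited statistic equalled fold change over SE, and the adjusted p equalled a Benjamini-Hochberg adjustment, to within 1.53e-13 and 1.39e-15.

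The authors' values were not refitted, and calls use an adjusted p under 0.05. The difference between LPS states was tested against the SE of a difference of independent values (two-sided, normal), adjusted by Benjamini-Hochberg over genes with a mean of at least 10 (Python 3.11.15, scipy 1.17.1). The code was tested on simulated data. Intervals are normal, at 95%. Depth per library is unknown, so precision is known through the SE only. GENCODE M21 gave coordinates for 14214 of 14264 gene IDs, and levels per kb use the union of exons. Promoters are from RefSeq, and protein sequences were not used here.

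Genes, lists and tests were chosen with earlier results of these data known. Named are all 10 genes, Kat8, the measured genes of the other GBP and IRG lists, up to 4 genes per further list with the smallest p in either comparison, the 3 nearest genes on each side of each cluster and the 5 genes nearest to the medians, except what is not reported here. Alternatives were centring, other sets of genes to adjust over, a threshold of 0.01, Benjamini-Yekutieli adjustment, a minimum of 0.5 for the log2 change, a null hypothesis of at most 0.25 and correlated errors.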

Additional observations from a re-analysis of the deposited data

Results flagged for a closer look

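The knockdown effect on Gbp5 differed between LPS 3 h and unstimulated cells by 0.99 on the log2 scale (SE 0.25, adjusted p = 5.39e-04), in a test of the difference itself. The difference for Irgm1 was 0.42 (SE 0.14, adjusted p = 0.0118) by the same test. That of Gbp5 was called under all 9 alternatives tried, and that of Irgm1 was lost under 5 of them.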

How the results depend on the processing

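Only centring changes a fold change itself, and under it the 10 genes had 0 reversals in 30 values. Of 250 gene-level values under the alternatives, 77 stayed called, 140 stayed not called, 29 lost their call and 4 gained one. The count of 5 genes raised unstimulated became 2 at a threshold of 0.01, 2 with a minimum log2 change of 0.5, 1 with Benjamini-Yekutieli adjustment and 0 against a null of at most 0.25, where 1 gene had an unadjusted p under 0.05. The count of 6 at LPS 3 h became 3 against that null (Gbp5, Irgm2 and Iigp1, the genes called under every setting tried) and lay between 4 and 7 otherwise. The count of 2 differences became 1, Gbp5, at a threshold of 0.01, with Benjamini-Yekutieli adjustment, with a minimum change of 0.5, against that null and with errors correlated by -0.5, and 3 with errors correlated by 0.5. The cause was not tested. No paired analysis was possible because the tables hold 1 fold change per gene and comparison, with no values per library, and for the same reason no library could be left out.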

Other observations

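Other GTPase families related to the GBPs gave mixed values. Of 4 measured very large interferon-inducible GTPases 2 rose and 0 fell in each state, with medians of 0.25 unstimulated and -0.0068 at LPS 3 h. Those that rose were Gvin1, by 0.50 (SE 0.15) and 0.44 (SE 0.12), and Gm4070, by 0.63 (SE 0.14) and 0.42 (SE 0.11), per the authors' deposited table. Gm1966 had 0.0071 (SE 0.25) and -0.43 (SE 0.23), and Gm8979 had -0.31 (SE 0.37) and -0.48 (SE 0.45), according to the authors' deposited table. Of 15 other dynamin superfamily genes 5 rose and 1 fell unstimulated, and 6 rose and 2 fell at LPS 3 h, with medians of 0.17 and 0.003. Ehd4, a gene of endosome recycling, rose by 1.04 (SE 0.09) and 1.21 (SE 0.08), and Ehd1 by 0.26 (SE 0.05) and 0.51 (SE 0.04), according to the authors' deposited table. Dnm1l, the mitochondrial fission GTPase gene, rose by 0.17 (SE 0.05) and 0.34 (SE 0.04) as given by the authors' deposited table. Mx2 rose in both states as well, by 0.35 (SE 0.12) and 0.88 (SE 0.10), per the authors' deposited table. So did Mx1, named after its values were seen, by 0.49 (SE 0.16) and 0.73 (SE 0.15). Those that fell were Atl2 unstimulated, at -0.52 (SE 0.07), and Dnm2, at -0.14 (SE 0.04), and Mfn1, at -0.22 (SE 0.06), at LPS 3 h per the authors' deposited table.

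Outside the 10 genes, 384 genes with the response element letters in a promoter window had an adjusted p at LPS 3 h, and 35.2% of them rose and 17.4% fell. Of 9362 genes whose windows lack these letters 30.2% rose and 22.03% fell. For the kappaB motif the shares that rose were 37.2% of 621 genes with it and 29.9% of 9125 without it. For the gamma-activated site letters they were 29.4% of 809 and 30.4% of 8937. These shares are descriptions across genes with no test.

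In the 91 genes with the largest means, all 30000 or more, the squared SE unstimulated was 1.23 times that at LPS 3 h in the median, with a 5th and 95th percentile of 1.22 and 1.31. One fit with equal groups would give a ratio near 1 for genes this abundant. Whether the authors fitted a covariate or left out a library is not given in the sources used here, and the use of 3 libraries per group in the fit was not checked, nor the independence of errors that the test of the difference assumes. Values with correlated errors are given with the other alternatives.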
